A study of Mus musculus with 10 samples.

Results

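VSGC12, a glucocorticoid known here only by its code name, was compared with fluticasone furoate (FF), a synthetic glucocorticoid used in inhaled and nasal medicines, in a mouse cell line with macrophage properties, RAW264.7. The comparison rests on 4 of the series' 10 single-colour arrays: VSGC12 replicates 1 and 2, and FF replicates 1 and 2. All probes that are not controls entered, and 18031 genes could be tested, 13503 of them with a current gene symbol. The other 6 arrays, VSG22, Dex (dexamethasone) and EtoH with 2 each, served to estimate the spread and to place the levels. Per the labels, every glucocorticoid was given at 100 nM, 1 hour before LPS (lipopolysaccharide from the outer membrane of bacteria, a strong stimulus for macrophages) at 1 µg/ml, with RNA taken at 16 hours, so both compounds were compared at one dose and one time. The labels do not state whether the EtoH cells, read here as solvent without glucocorticoid, received LPS, and whether replicates came from separate cultures. The p-values therefore measure the spread between these arrays, which may be technical.

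Glucocorticoids bind the glucocorticoid receptor (Nr3c1), which is held by heat shock proteins in the cytoplasm and moves to the nucleus when a ligand is bound. There it raises transcription of genes such as Fkbp5, Tsc22d3 and Dusp1, and it lowers the output of inflammatory genes driven by NF-kB and AP-1. In LPS-treated macrophages the lowered genes are known to include cytokines, chemokines and inducible nitric oxide synthase. A level below is the log2 processed signal minus the array's own 75th percentile, and a difference is VSGC12 minus FF in these log2 units.

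Between VSGC12 and FF cells, 1 gene passed the test. With limma fitted on all 10 arrays and Benjamini-Hochberg adjustment at a threshold of 0.05, that was 0.00555% of the 18031 genes. The gene was Pign, lower in VSGC12 cells, and 0 genes were higher. Unadjusted p-values under 0.05 were found for 759 genes (4.21%), 371 of them higher in VSGC12 cells (2.06% of all) and 388 lower (2.15%). Both VSGC12 arrays stood on one side of both FF arrays for 5847 genes (32.4%). The median difference over all genes was 0.006, and 48.2% of genes were lower in VSGC12 cells. With the array median subtracted, which moved the median difference to 0.074, 14 genes were called, 1 higher and 13 lower, Pign among them.

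A count of 1 does not show that the compounds act alike, so the width of the intervals was examined. The 95% interval of the difference lay wholly within 2-fold for 83.6% of genes and within 1.5-fold for 68% of them. Precision followed brightness. For the 16269 genes whose probe was well above background on all 4 arrays, the median interval reached 0.29 to each side of the estimate, and 89.3% of intervals lay within 2-fold. For the other 1762 genes the median half-width was 0.87 and 30.7% of intervals lay within 2-fold.

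The spread between the compounds was set beside that between replicates of one compound. Among genes above background on all 4 arrays, the SD over genes of VSGC12 minus FF was 0.27 on slide 1 and 0.26 on slide 2. The same SD for replicate 1 minus replicate 2 was 0.31 in VSGC12 cells and 0.30 in FF cells. Replicate number and slide coincide here, and each slide holds all 5 groups, so differences between compounds were taken within a slide and those between replicates across slides. Across slides, over all genes, VSGC12 replicate 1 minus FF replicate 2 had an SD of 0.47 and VSGC12 replicate 2 minus FF replicate 1 one of 0.40. Replicate 1 minus replicate 2, also across slides and over all genes, had an SD of 0.41 in VSGC12 cells and 0.37 in FF cells. Within slides the SD between compounds over all genes was 0.38 and 0.37. The differences on the 2 slides correlated with r = 0.28 across genes, which are not independent replicates.

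**Figure D1:**
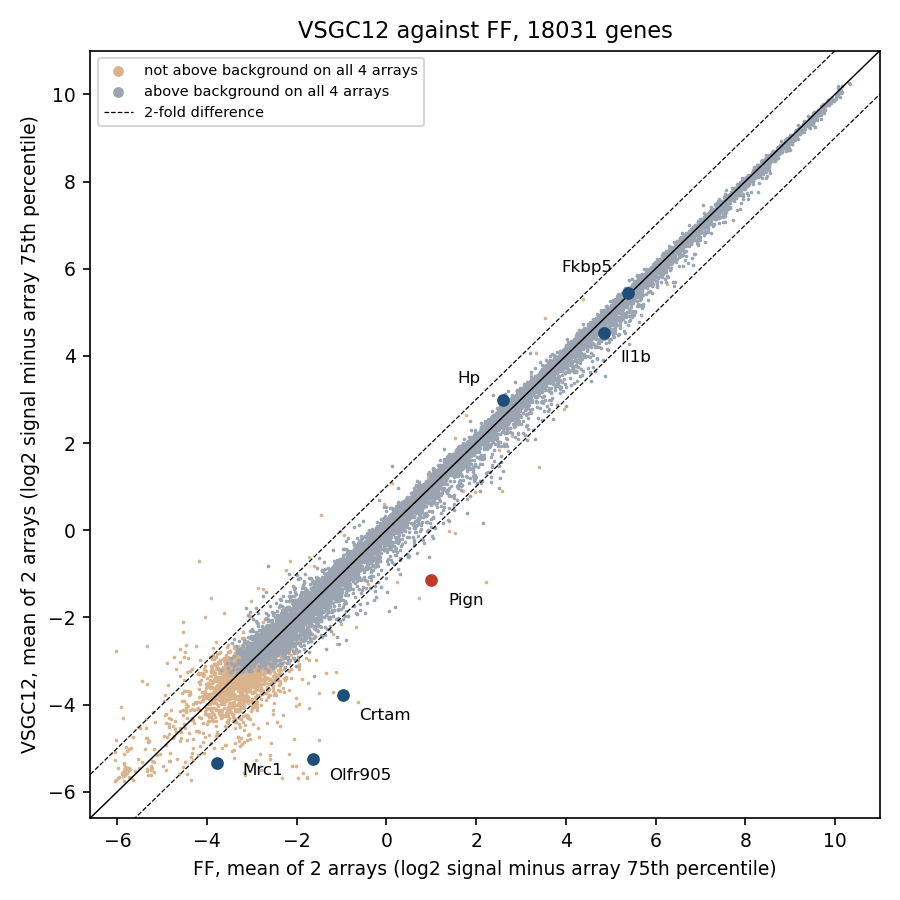
Mean level in VSGC12 cells (vertical axis) against mean level in FF cells (horizontal axis), both in log2 signal minus the array 75th percentile, with 1 point a gene. The solid line marks equal levels and the dashed lines a 2-fold difference; Pign, in red, lies below the lower dashed line among genes above background on all 4 arrays, and the points spread most at the dim end.

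**Figure D2:**
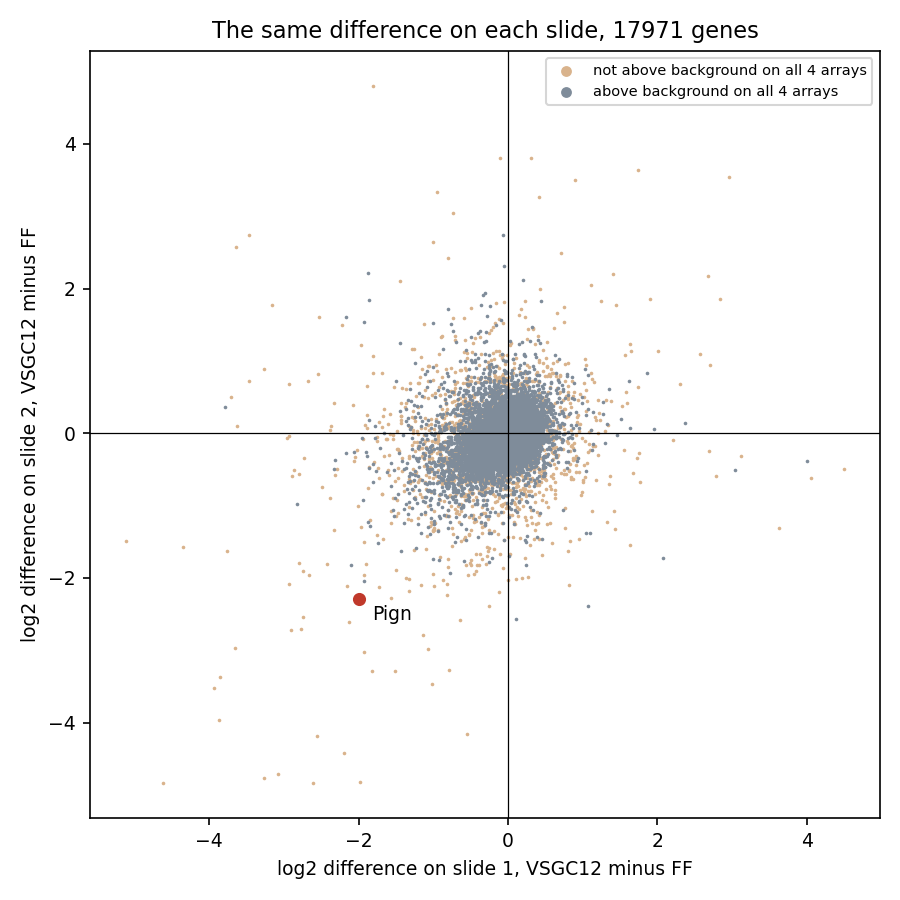
Difference between VSGC12 and FF on slide 1 (horizontal axis) and on slide 2 (vertical axis), in log2 units, for each gene with a value on all 4 arrays. Most points lie close to 0 on both axes, and Pign stands at -1.99 on slide 1 and -2.29 on slide 2.

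Pign encodes a phosphoethanolamine transferase that acts in the assembly of glycosylphosphatidylinositol (GPI) anchors, the lipid tails that hold some proteins on the cell surface. The array carries 2 measured probes for it, and they did not show the same difference. The first 30 of the 60 bases of each are shown because these probes carry the only call; capitals mark the run of 8 CA units in the brighter probe.
Pign, brighter probe: catgctgtgaCACACACACACACACAttgc
Pign, dimmer probe: cctggtgtttcttgtaaacagaagctcacc
The files place the brighter probe at chr1:107418310-107418369 and the dimmer one at chr1:107454091-107454588, both on mm9. No annotation of that build was used, so exon or UTR positions are not given. On the brighter probe Pign read -1.08 and -1.19 on the VSGC12 arrays, against 0.90 and 1.10 on the FF arrays. Its levels were 0.23 and 0.47 on the VSG22 arrays, 0.19 and 0.19 on the Dex arrays, and -0.16 and -0.39 on the EtoH arrays. The VSGC12 arrays were thus the lowest of the 10 and the FF arrays the highest, with no overlap. The difference was -2.14 ± 0.12 (SE), with a 95% interval of -2.44 to -1.84 and a limma adjusted p of 0.0132.

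The dimmer Pign probe read -1.52 and -1.31 on the VSGC12 arrays, against -1.95 and -1.24 on the FF arrays. Here the groups overlapped, and the difference was 0.18, with a 95% interval of -0.35 to 0.71. The Pign result is therefore a result of 1 probe. Averaged over both probes the difference was -0.98, with a limma adjusted p of 0.444. The call was also lost with the slide as a block (limma adjusted p = 0.057), without the filter on dim probes (0.123) and in a fit of the 4 arrays alone (0.132). Leaving out 1 array ended it for each of the 4: the adjusted p was 0.0683 without VSGC12 replicate 1, 0.103 without VSGC12 replicate 2, 0.0727 without FF replicate 1 and 0.133 without FF replicate 2. In these 4 fits the difference stayed between -2.24 and -2.04.

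The brighter Pign probe was one of 52 measured probes holding 6 or more CA units in a row, 0.222% of all measured probes, a class noticed only after the values were seen. Of these 52 probes, 46 were lower and 6 higher in VSGC12 cells, with a median difference of -0.27, beside 0.01 over all measured probes. Their median difference was -0.45 on slide 1 and -0.08 on slide 2. Their median level was 0.84 and 1.06 on the VSGC12 arrays, against 1.24 and 1.15 on the FF arrays, and -0.16 and -0.67 on the EtoH arrays. After Pign, the lowest difference among them was -0.98 and the highest 0.17. Other repeats were looked at in the same way. The 21 probes with 6 or more GA units had a median difference of -0.16, with 19 lower and 2 higher, and of -0.40 on slide 1 and 0.02 on slide 2. The 115 probes with 6 or more TG units had a median of -0.008, and the 20 with 6 or more TC units one of -0.03. The part of the repeat in the Pign value was not tested.

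Among named genes above background on all 4 arrays, those next to Pign by unadjusted p were Ncdn and Ube4b, and each was also measured by a pair of probes that gave different values. Ncdn, which encodes neurochondrin, read 2.94 and 2.64 on the VSGC12 arrays, against 3.57 and 3.67 on the FF arrays with its brighter probe, a difference of -0.83 (95% interval -1.09 to -0.57). Its dimmer probe gave 0.02, with an interval of -0.26 to 0.30. Ube4b, a ubiquitin ligase gene, read 2.50 and 2.16 on the VSGC12 arrays, against 3.20 and 3.11 on the FF arrays with its brighter probe, a difference of -0.83. Its dimmer probe gave -0.02, with an interval of -0.31 to 0.27. With the brighter probe, neither gene's VSGC12 arrays overlapped those of any other group. Neither gene passed the test, with a limma adjusted p of 0.519 for each.

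**Figure D3:**
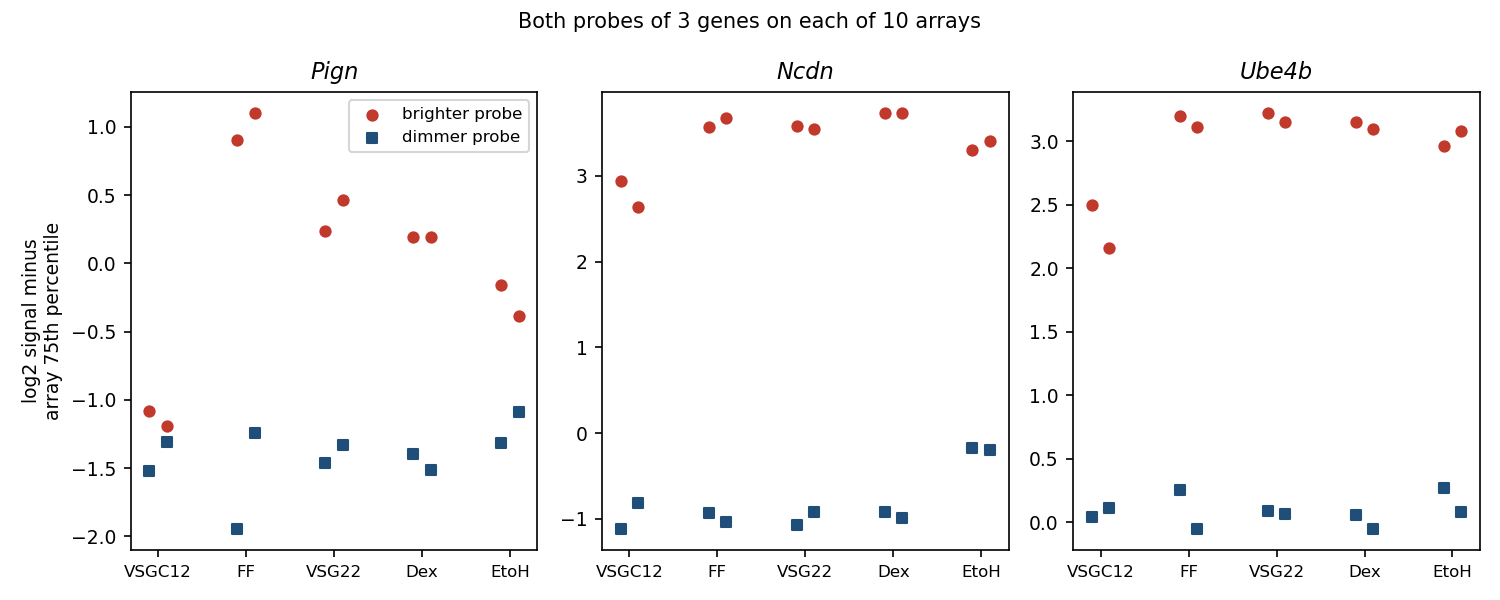
Level of both measured probes of Pign, Ncdn and Ube4b on each of the 10 arrays (log2 signal minus the array 75th percentile), with VSGC12 first and EtoH last. The brighter probe of each gene (circles) is lowest on the 2 VSGC12 arrays, and the dimmer probe (squares) shows no such step.

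The remaining genes with the smallest unadjusted p-values among those above background on all 4 arrays differed by less than 2-fold, and none passed the test. On the lower side, Tpsb2, a mast cell tryptase gene, read -2.70 and -2.62 on the VSGC12 arrays, against -2.18 and -1.97 on the FF arrays, a difference of -0.58. The unnamed transcript 5730455P16Rik differed by -0.45. On the higher side, Hspa2, a member of the Hsp70 chaperone family, read -1.43 and -1.41 on the VSGC12 arrays, against -1.92 and -1.83 on the FF arrays, a difference of 0.46. Rbpms2, which encodes an RNA-binding protein, and the pseudogene Csnk2a1-ps each differed by 0.68, and both have a probe in a patch on one of the 4 arrays. A patch was marked by the 24 spots around a probe's spot, whatever that spot itself read. At least 3 of them had to be well above background on that array and on no array of another group. Hpdl differed by 0.38 and B3gat3, a glycosyltransferase gene of glycosaminoglycan synthesis, by 0.36. For these genes the limma adjusted p ran from 0.563 for Tpsb2 to 0.926 for B3gat3.

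Listed targets of the receptor had near-equal levels under both compounds. Of 32 listed targets 27 were measured. None passed the test in either direction, 10 were higher and 17 lower in VSGC12 cells, and the median difference was -0.03, beside 0.006 over all genes. The 95% interval lay within 2-fold for 26 of the 27 and within 1.5-fold for 21. Relative to EtoH the median of the list was 0.21 in VSGC12 cells and 0.26 in FF cells. For members that differ little from EtoH, near-equal levels do not show equal induction. Fkbp5, a co-chaperone that damps receptor activity, read 5.53 and 5.35 on the VSGC12 arrays, against 5.49 and 5.28 on the FF arrays, while the EtoH arrays stood at 3.17 and 3.08. The VSGC12 and FF arrays overlapped, both far above EtoH, and the difference was 0.05 (95% interval -0.26 to 0.37). Tsc22d3, the gene of the anti-inflammatory protein GILZ, differed by 0.07 (-0.14 to 0.29), and Dusp1, a MAP kinase phosphatase, by -0.02 (-0.41 to 0.38). Both genes stood close to EtoH. Relative to it, Tsc22d3 differed by 0.21 in VSGC12 cells and 0.13 in FF cells, and Dusp1 by 0.18 and 0.20.

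Hp and Mt1 had the smallest unadjusted p-values among the targets. Hp, the gene of the haemoglobin-binding plasma protein haptoglobin, read 3.10 and 2.90 on the VSGC12 arrays, against 2.62 and 2.60 on the FF arrays, and -2.48 and -2.40 on the EtoH arrays. Both VSGC12 arrays were higher than both FF arrays, by 0.39 (95% interval 0.13 to 0.64; limma adjusted p = 0.995). Mt1, a metal-binding metallothionein gene, read 9.17 and 9.35 on the VSGC12 arrays, against 9.65 and 9.47 on the FF arrays, a difference of -0.31 (-0.60 to -0.01). That difference was -0.49 on slide 1 and -0.12 on slide 2. The other listed metallothionein gene, Mt2, differed by -0.12 (-0.37 to 0.12). Hp and Mt1 were the only 2 of the 27 with an unadjusted p under 0.05, beside 4.21% of all genes. The lowest difference in the list, -0.42 for Fpr1, a receptor for bacterial formyl peptides, had an interval of -0.91 to 0.07. The highest, 0.68 for the transcription factor gene Zbtb16, had an interval of -0.49 to 1.85, and its probe was not above background on every array.

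The receptor and its partners gave the same picture. Nr3c1 read 3.31 and 3.14 on the VSGC12 arrays, against 3.10 and 3.24 on the FF arrays, with overlap and a difference of 0.05 (95% interval -0.16 to 0.27). Over the 21 measured genes of the receptor, its chaperones and its cofactors, differences ran from -0.15 for Hsp90ab1 to 0.23 for the coactivator Ncoa1. The interval lay within 1.5-fold for 20 of the 21, and 0 passed the test. The exception was the chaperone gene Hspa8, at -0.09 with a wide interval of -2.04 to 1.86.

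**Figure D4:**
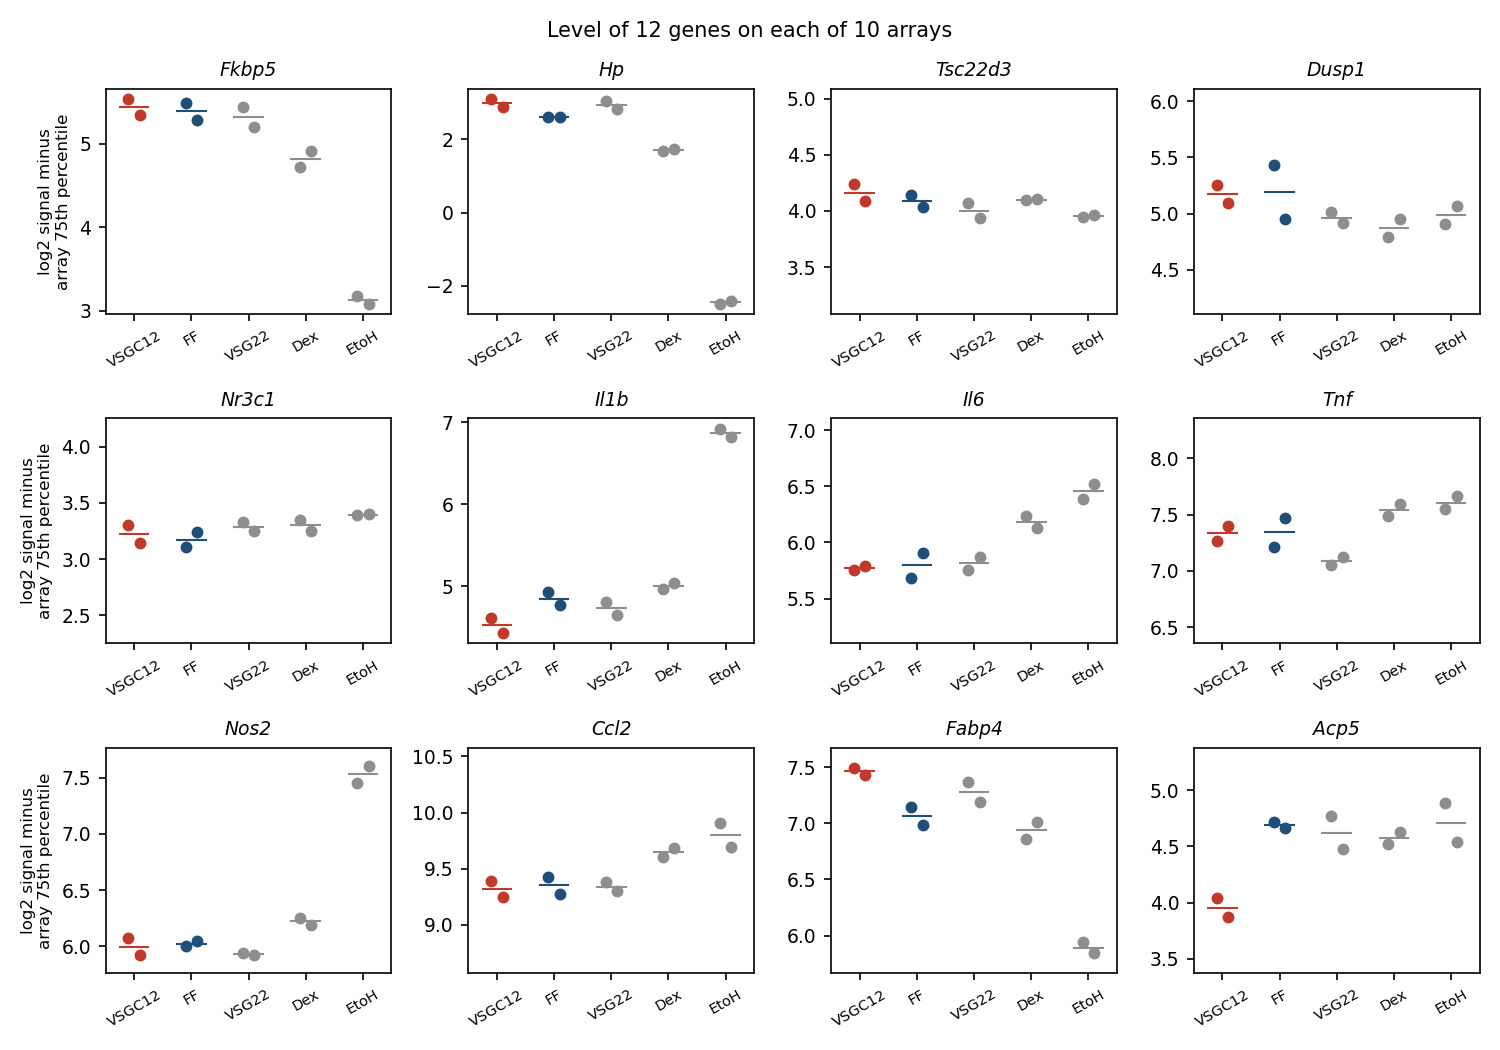
Level of 12 genes on each of the 10 arrays (points, log2 signal minus the array 75th percentile; bars, group means), with VSGC12 and FF first and EtoH last. Fkbp5, Il6, Tnf, Nos2 and Ccl2 have overlapping VSGC12 and FF arrays, while those of Hp, Il1b, Fabp4 and Acp5 stand apart by 0.33 to 0.74 without passing the test.

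Among bright genes of secreted inflammatory signals, Il6, Tnf and Ccl2 were level, while Il1b and Cxcl10, given below, had groups without overlap. Il6 read 5.76 and 5.79 on the VSGC12 arrays, against 5.68 and 5.91 on the FF arrays, a difference of -0.02 (95% interval -0.27 to 0.23). Tnf read 7.27 and 7.40 on the VSGC12 arrays, against 7.22 and 7.47 on the FF arrays, a difference of -0.01 (-0.27 to 0.25). The VSGC12 values of each lay between the FF values. Ccl2, a monocyte-attracting chemokine gene, differed by -0.04 (-0.29 to 0.22).

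Interleukin 1 genes had lower values in VSGC12 cells without passing the test. Il1b read 4.62 and 4.43 on the VSGC12 arrays, against 4.93 and 4.78 on the FF arrays and 6.92 and 6.82 on the EtoH arrays. The groups did not overlap and the difference was -0.33 (95% interval -0.58 to -0.07; limma adjusted p = 0.995). Il1a read 0.80 and 0.79 on the VSGC12 arrays, against 1.12 and 1.18 on the FF arrays, a difference of -0.36 (-0.58 to -0.13). Of the 23 measured cytokine genes, 17 were lower and 6 higher, with a median difference of -0.13 that was -0.11 on slide 1 and -0.12 on slide 2. Unadjusted p-values under 0.05 were found for 5 of the 23, all lower, beside 2.15% of all genes: Il1a, Il1b, Il10, Vegfa and Il33. Il10 encodes a cytokine that limits inflammation, and Vegfa a growth factor of blood vessels. None of the 23 passed the test, and a list's shift was not tested.

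Chemokine genes were divided. Of 15 measured, 12 were lower and 3 higher, with a median difference of -0.09 and 0 past the test. Cxcl10, an interferon-induced attractant of T cells, read 5.60 and 5.87 on the VSGC12 arrays, against 5.36 and 5.45 on the FF arrays, a difference of 0.34 (95% interval 0.09 to 0.59). Ccl12, a monocyte attractant, read -1.21 and -1.77 on the VSGC12 arrays, against -0.90 and -0.95 on the FF arrays, a difference of -0.56 (-1.01 to -0.12). Neither gene's groups overlapped.

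Interferon-induced genes were level as a group. The 46 measured members of the type I interferon list had a median difference of -0.02, with 21 higher and 25 lower, and 41 intervals within 1.5-fold. Oas2, which makes the second messenger of an antiviral RNA-degrading pathway, read 4.21 and 4.95 on the VSGC12 arrays, against 5.35 and 5.23 on the FF arrays, a difference of -0.71 (95% interval -1.22 to -0.20) that was -1.14 on slide 1 and -0.28 on slide 2. Slfn1, the member with the widest positive difference at 1.23, had an interval of -0.17 to 2.62. Of the 13 measured guanylate-binding protein (GBP) and immunity-related GTPase genes, which act against pathogens inside cells, 12 were lower and 1 higher, with a median of -0.10 and 0 past the test. Gbp2 read -2.07 and -2.31 on the VSGC12 arrays, against -1.28 and -1.79 on the FF arrays, a difference of -0.65 (-1.08 to -0.22). Gbp5, the member that was higher, differed by 0.42 (-0.17 to 1.01).

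Effector enzymes and the signalling steps upstream of them had near-equal levels. Nos2, inducible nitric oxide synthase, read 6.07 and 5.92 on the VSGC12 arrays, against 6.00 and 6.04 on the FF arrays and 7.46 and 7.61 on the EtoH arrays, a difference between compounds of -0.03 (95% interval -0.24 to 0.18). Ptgs2, the inducible cyclooxygenase, differed by -0.02 (-0.34 to 0.29). Over 33 inflammatory enzymes and effectors the median difference was 0.007, with 29 intervals within 1.5-fold. Over 33 genes of the NF-kB pathway it was 0.004, with 33 intervals within 2-fold and 31 within 1.5-fold. The widest difference there was -0.39 for Ly96, a co-receptor for LPS (-0.83 to 0.04). MAP kinase phosphatase and mRNA decay genes (20 measured, median 0.02), JAK-STAT feedback genes (24, median 0.005) and AP-1 and immediate early factors (25, median -0.02) likewise held 0 called members.

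Cell-cycle genes, above EtoH under both compounds, differed little between them. Relative to EtoH, the 62 measured mitosis genes had a median difference of 1.89 in VSGC12 cells and 1.89 in FF cells, and the 44 S phase genes 1.51 in VSGC12 cells and 1.46 in FF cells; these pairs share their EtoH arrays. Directly between compounds, the median was 0.04 for mitosis genes, with 44 higher and 18 lower, and 0.008 for S phase genes, with 23 higher and 21 lower. Mki67, a marker of proliferating cells, read 3.07 and 3.10 on the VSGC12 arrays, against 2.85 and 2.97 on the FF arrays, a difference of 0.17 (95% interval -0.08 to 0.42). Mcm5, a subunit of the replicative helicase, differed by -0.05 (-0.31 to 0.21). Histone genes had the highest list median, markers of other cell types left out: 0.11 over 14 measured members, 11 of them higher, and 0 passed the test. Circadian clock genes had a median relative to EtoH of -1.03 in VSGC12 cells and -1.04 in FF cells, and a median of 0.03 between the compounds. Of their 14 intervals between the compounds, 8 lay within 1.5-fold and 11 within 2-fold. Nr1d2 read -3.48 and -3.32 on the VSGC12 arrays, against -3.05 and -1.43 on the FF arrays. Its difference was -1.16 (-2.33 to 0.0007), and its probe was not above background on every array.

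In metabolism and housekeeping lists, narrow intervals around 0 were the rule. All 32 mitochondrial respiratory chain genes and all 27 proteasome genes measured had intervals within 1.5-fold, with medians of 0.02 and 0.005. Sterol synthesis genes had a median of 0.03 and 26 of 27 intervals within 1.5-fold. Glycolysis and hypoxia genes had a median of -0.06, with 20 of 29 lower, among them Bnip3, a hypoxia-induced mitophagy gene, at -0.34 (95% interval -0.63 to -0.05). Sesn2, a stress-induced regulator of amino-acid sensing, read 3.76 and 3.60 on the VSGC12 arrays, against 4.09 and 4.14 on the FF arrays, a difference of -0.44 (-0.86 to -0.01). None of the members of these lists passed the test.

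Acp5 and Fabp4, both bright, stood apart on both slides without passing the test. Acp5, the tartrate-resistant acid phosphatase that marks osteoclasts, read 4.04 and 3.87 on the VSGC12 arrays, against 4.72 and 4.66 on the FF arrays and 4.88 and 4.54 on the EtoH arrays. The difference was -0.74 (95% interval -1.09 to -0.38; limma adjusted p = 0.878), and -0.68 on slide 1 and -0.79 on slide 2. Of the 17 measured osteoclast-associated genes 12 were lower and 5 higher, with a median of -0.06. Fabp4, a fatty acid carrier of fat cells and macrophages, read 7.50 and 7.43 on the VSGC12 arrays, against 7.14 and 6.99 on the FF arrays and 5.94 and 5.84 on the EtoH arrays. Its difference was 0.40 (0.15 to 0.64; limma adjusted p = 0.995), and lipid handling genes as a list had a median of -0.02.

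**Figure D5:**
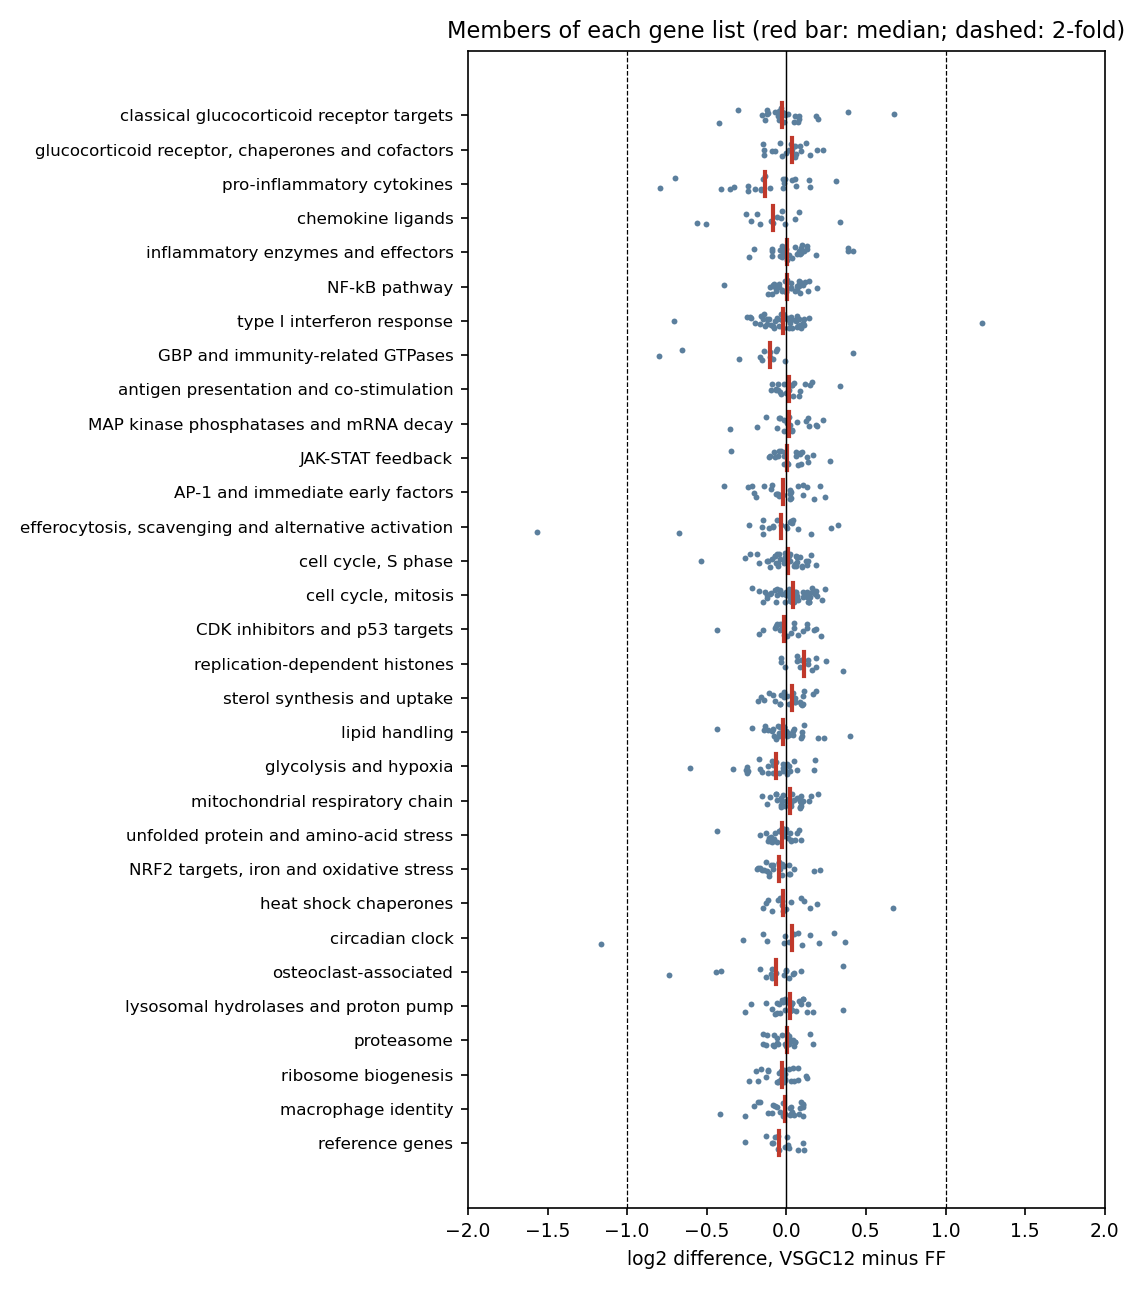
Difference between VSGC12 and FF (log2) for each measured member (points) of the 31 gene lists with at least 5 measured members, cell type markers left out. Red bars are list medians, which run from -0.13 for cytokines to 0.11 for histones; dashed lines mark 2-fold, and 0 of the points passed the test.

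The labelled cell type expressed its markers on all 4 arrays. The array 75th percentile of signal was 419.5 and 398.5 on the VSGC12 arrays, against 415.1 and 428.6 on the FF arrays, and 42.1% and 40.1% of spots were well above background on the VSGC12 arrays, against 42.3% and 44.4% on the FF arrays. All 12 macrophage markers were above background on all 4 arrays, with differences from -0.20 to 0.10. None of the 4 B cell and 4 epithelial markers was. Those that were numbered 3 of 6 for T cells, 3 of 6 for neutrophils and mast cells, 1 of 5 for fibroblasts and 2 of 5 for dendritic cells. The summed level of the neutrophil and mast cell markers Elane, Camp and Tpsb2 was 0.64 and 1.04 on the VSGC12 arrays, against 1.93 and 2.28 on the FF arrays. That of the T cell markers Cd3e, Cd4 and Lck was 9.37 and 9.86 on the VSGC12 arrays, against 10.1 and 10.3 on the FF arrays. Cd4 differed by -0.47 (95% interval -1.48 to 0.54) and Elane by -0.54 (-1.64 to 0.56). Both also differed between replicates of one group: Cd4 read 5.31 and 6.80 and Elane 5.49 and 7.09 on the Dex arrays. No member of these marker lists passed the test, and their part in the differences above was not tested.

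Differences over 2-fold were found mostly among dim genes and mostly on the lower side. They numbered 281, of which 223 were lower and 58 higher in VSGC12 cells. Of the 223, 69 had passed the filter on dim probes through the FF arrays alone, beside 252 of all genes. Of the 58, 13 had passed it through the VSGC12 arrays alone, beside 46 of all genes. For such genes the filter favoured one side, so they are not evidence of a direction. A probe in a patch, as defined above, on an FF array was found for 31 of the 223 (13.9%) and 12 of the 58 (20.7%), beside 3.79% of all genes. On a VSGC12 array it was 8 (3.59%) and 5 (8.62%), beside 1.24%. Patches were marked from the same above-background flags as the filter on dim probes, so these shares are not independent of detection. Among genes above background on all 4 arrays, 80 differed by over 2-fold, 70 lower and 10 higher. Those without a current gene symbol were 38 of the 70 and 6 of the 10, beside 4528 of all 18031. The median level of those 70, which were chosen by this difference, was -1.05 and -0.14 on the VSGC12 arrays, against 0.22 and 0.92 on the FF arrays. It was -1.06 and 1.51 on the Dex arrays and -1.50 and -1.29 on the EtoH arrays, so their level varied between replicates of one group as well.

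Crtam and Olfr905, chosen after their values were seen, each had a probe above background on both FF arrays and on neither VSGC12 array. Crtam, a T cell and natural killer cell surface receptor gene, read -4.23 and -3.33 on the VSGC12 arrays, against -1.33 and -0.61 on the FF arrays, at least 5.55-fold lower in VSGC12 cells (limma adjusted p = 0.519). Its levels were -0.89 and -0.97 on the EtoH arrays, near those of FF, and -2.42 and -1.89 on the VSG22 arrays. On the Dex arrays Crtam read -4.33 and -3.75, not above background on either, so the low level was not particular to VSGC12. Olfr905, an olfactory receptor gene, read -5.25 and -5.26 on the VSGC12 arrays, against -1.39 and -1.90 on the FF arrays and -5.20 and -5.62 on the EtoH arrays. Its group mean was lower in VSGC12 cells than in FF cells by a bound of 3.48-fold (limma adjusted p = 0.175). Olfr905 was above background on no array of the other 4 groups and passed the filter through FF alone. The filter thus favoured a higher level in FF cells, and its p supports nothing. These folds are bounds on the difference of group means, set against the dimmest signal accepted as well above background on the VSGC12 arrays. They make no allowance for the spread between arrays. Ntf5, a neurotrophin gene, had the next smallest limma adjusted p, 0.254, but was not well above background on any of the 4 arrays, so no fold is given. Mrc1, the mannose receptor of alternatively activated macrophages, was likewise not well above background on any of the 4.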

How the data were processed

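RNA of 10 samples of RAW264.7 cells was measured on single-colour arrays. Per the file headers, the deposited values are spot intensities from Agilent Feature Extraction 10.7.3.1, corrected by the scanner software for background and spatial trend and not scaled between arrays; other deposited columns hold flags. The submitters list limma without its step. Depth has no counterpart here: the number of arrays, 2 a group, limits the precision.

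Outlier spots were left out, a probe's spots averaged on the log2 scale, and each array's 75th percentile subtracted. Of 55681 probes, 26413 were named by accession, 3859 by symbol and 735 by synonym in the GRCm38.p6 gene table, and 24674 kept the file's name; 23409 probes passed the filter on dim signal (well above background on both arrays of some group). A gene was represented by its brightest such probe, and 4082 genes had more than 1. A gene lacking a value on all arrays of VSGC12 or FF was not tested; 160 of the measured genes lack a value on some array and were fitted without it. All groups were fitted with limma 3.58.1 (R 4.3.3, lmFit, eBayes, no term but the group; 5 degrees of freedom residual, 1.81 prior), two-sided, adjusted over all genes by Benjamini-Hochberg. Where a probe was below background on a whole group, a bound replaced the fold.

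Replicate numbers follow the 2 slides, and deviations from the group means correlated between VSGC12 and FF with r = 0.31 across genes; whether same-numbered cultures were paired is not stated in the labels. A slide block was an alternative, beside other scalings, background corrections, filters, probe rules, spread estimates and fits leaving out each array.

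Named genes are up to 12 called in each direction, filled to 5 by smallest unadjusted p; in each list up to 4 called members or else the 2 with the smallest p; and 10 anchors (Fkbp5, Tsc22d3, Dusp1, Nr3c1, Il1b, Il6, Tnf, Nos2, Ccl2, Hp). Genes under the first of these rules have a current symbol, a value on all 10 arrays, a probe above background on all 4 arrays and groups without overlap. Il10, Il33, Gbp5, Slfn1, Zbtb16, Ptgs2, Mki67, Mcm5, Mt2, Hspa8, Hsp90ab1, Crtam, Olfr905 and Ntf5 were named after their values were seen. The compounds compared and the 37 gene lists were chosen with earlier results of these data known.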

Additional observations from a re-analysis of the deposited data

How the results depend on the processing

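The main processing called 1 gene, 0 higher and 1 lower in VSGC12 cells. With the array median subtracted, a scaling that rests on dim spots, it was 14, 1 higher and 13 lower. It was 3, all lower, with each probe tested on its own, and 2, both lower, without both Dex arrays. It was 0 without the filter on dim probes, with the mean of a gene's probes and in a fit of the 4 VSGC12 and FF arrays. With the replicate block (slide as a fixed term) it was 0 as well, with 923 genes at an unadjusted p under 0.05, against 759 without the block. Leaving out each array in turn gave 0 to 2 called genes, 0 to 1 higher and 0 to 2 lower, with Ntf5 called without VSGC12 replicate 1. In 2 alternatives chosen after seeing the data, it was 0 without probes holding 6 CA units, which drops Pign, and 2, both lower, with the second-highest probe of each gene, where the Pign difference was 0.18. The normexp background correction, quantile scaling, the detected-probe percentile, the stricter filter, leaving out patches, and a trended, robust prior each called 1 gene, Pign. Among the 23 tested alternatives that give Pign 1 value, it was called in 14. These 14 are not all separate fits. Leaving out either array of EtoH, VSG22 or Dex removes that group's spread, so both choices gave the same Pign result. For Dex, leaving out both arrays gave that result too. Tested probe by probe, the brighter Pign probe was called as well. The cause of these changes was not tested. Other than Pign, 3 named genes (Olfr905, Crtam and Ntf5) were called in some alternative. Of the list medians, 930 values under alternatives moved by less than the replicate spread and 5 by more. Precision was lower at low signal over background: for genes not above background on all 4 arrays, 30.7% of intervals lay within 2-fold, beside 89.3% for the rest.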

Other observations

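Detection was uneven between the compounds among the dimmest probes. The probe was well above background on both FF arrays and neither VSGC12 array for 249 genes, and on both VSGC12 arrays and neither FF array for 19. Of the 249, 123 had passed the filter on dim probes through the FF arrays alone, and of the 19, 12 through the VSGC12 arrays alone. For these genes the filter fixed the side, so they are not evidence of a direction. The lowest scaled signal that counted as well above background was -3.67 and -3.21 on the VSGC12 arrays, against -3.53 and -3.93 on the FF arrays. Genes with a probe in a patch numbered 223 on the VSGC12 arrays (1.24%), against 683 on the FF arrays (3.79%). Patches were marked from the same above-background flags, so these counts are not independent of the detection counts. The part of these values in the uneven detection was not tested.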
